A study of Mus musculus with 12 samples.

Results

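The 27 genes described here belong to the cholesterol synthesis and SREBP2 pathway: 20 enzymes from the mevalonate steps to the last sterol reduction, 4 genes that control SREBP2, and 3 sterol carriers. They were taken by symbol from a list of known pathway genes, and each matched 1 of the 55401 genes in the deposited tables. Their RNA was read in bulk polyA libraries of migratory dendritic cells (DCs), which carry antigen from a tissue to its draining lymph nodes. The cells were sorted from the pancreas, the liver and the duodenum of mice of strain B6 aged 6 to 8 weeks, with 4 libraries from each of the 3 tissues. Each library pooled 2 mice, so no library reports on a single animal. The labels name no treatment and no altered allele for any group, and no tissue served as a control. The sorting gate took live CD103+ cells that lacked CD11b and lineage markers, were high for MHC class II and carried CD11c and CD45, a profile used for conventional type 1 DCs, or cDC1. The 12 libraries held 220.9 to 356.1 M (mega) estimated counts. Levels are given as CPM, counts per M (mega) counts of a library after scaling, and levels of different genes are compared as TPM, which is also scaled for gene length. The 14 cDC1 genes checked, among them Xcr1, Clec9a and Irf8, summed to 6957 to 8529 CPM in liver, 5351 to 8526 CPM in duodenum and 5933 to 7758 CPM in pancreas, and none of the 14 was at 0 in all libraries of a tissue. Against duodenum, 1 of the 14 was higher and 1 lower in liver, and 1 was higher and 3 lower in pancreas. The shares of all genes in these comparisons are given below. Itgae, which encodes the gate marker CD103, was lower in both tissues, at 324 ± 48.5 CPM in liver, 569 ± 117 CPM in duodenum and 334 ± 46.2 CPM in pancreas (mean ± SD of 4 libraries). Cadm1 was higher in both, and Itgax, which encodes CD11c, and Tlr3 were lower in pancreas.

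Cells make cholesterol from acetyl-CoA through mevalonate, which gives the isoprenoids, then through squalene and lanosterol. SREBP2, the product of Srebf2, is a membrane-bound transcription factor that SCAP escorts from the endoplasmic reticulum to the Golgi, where proteases free its active part when sterol is low; INSIG proteins hold the SCAP-SREBP2 pair back when sterol is high. The freed factor switches on most genes of the synthesis route and Insig1 itself, and in immune cells the pathway supplies membrane cholesterol and the lipid anchors of small GTPases.

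By mean CPM, 15 of the 20 enzymes were highest in duodenum, intermediate in liver and lowest in pancreas. In liver, 13 of the 27 genes were lower than in duodenum and 1 was higher, at an adjusted p under 0.05 in edgeR's quasi-likelihood test over 44624 genes. Of all genes tested, 3.95% were lower and 3.37% higher in that comparison, and of the 11647 genes expressed at least as highly as the lowest of the 27, 11.4% were lower and 7.48% higher. In pancreas, 16 of the 27 were lower than in duodenum and 0 were higher in edgeR's test, with 3 higher at an unadjusted p under 0.05 and 0 higher by DESeq2. The share of all genes was 3.94% lower and 3.76% higher, and 11.1% and 8.59% among the 11647. The median log2 difference of the 27 was -0.81 for liver minus duodenum, where the median of all genes was 0.10, and -1.27 for pancreas minus duodenum, where it was 0.09. Among the 11647 the medians were -0.08 and -0.05. Between liver and pancreas, 1 of the 27 was higher in liver and 0 were lower, beside 0.426% and 0.681% of all genes and 1.07% and 1.94% of the 11647. The median was 0.32, against 0.01 for all genes and -0.02 for the 11647. At an unadjusted p under 0.05, 9 were higher and 0 lower in liver, and DESeq2 called 2 and 0. Liver and pancreas were both compared with the same 4 duodenum libraries, so their results are given side by side and are not independent. In such bulk samples, fewer cells of a type and less RNA per cell cannot be told apart.

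By step, the 5 mevalonate genes included 3 that were lower in liver and 5 that were lower in pancreas. Among the 3 isoprenoid genes 2 were lower in either tissue. Of the 3 genes from squalene to lanosterol, 2 were lower in liver and 3 in pancreas. The 9 genes from lanosterol to cholesterol held 4 lower in liver and 4 in pancreas. Of the 4 control genes, only Insig1 was lower, in both tissues. The 3 carriers split, with Stard4 lower in both tissues and Npc2 higher in liver. All 4 liver libraries lay below all 4 duodenum libraries for 17 of the 27 genes and above them for 2, which 5.9% and 7.6% of all genes did. All 4 pancreas libraries lay below duodenum for 15 and above it for 0, beside 5.36% and 7.12% of all genes.

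**Figure D1:**
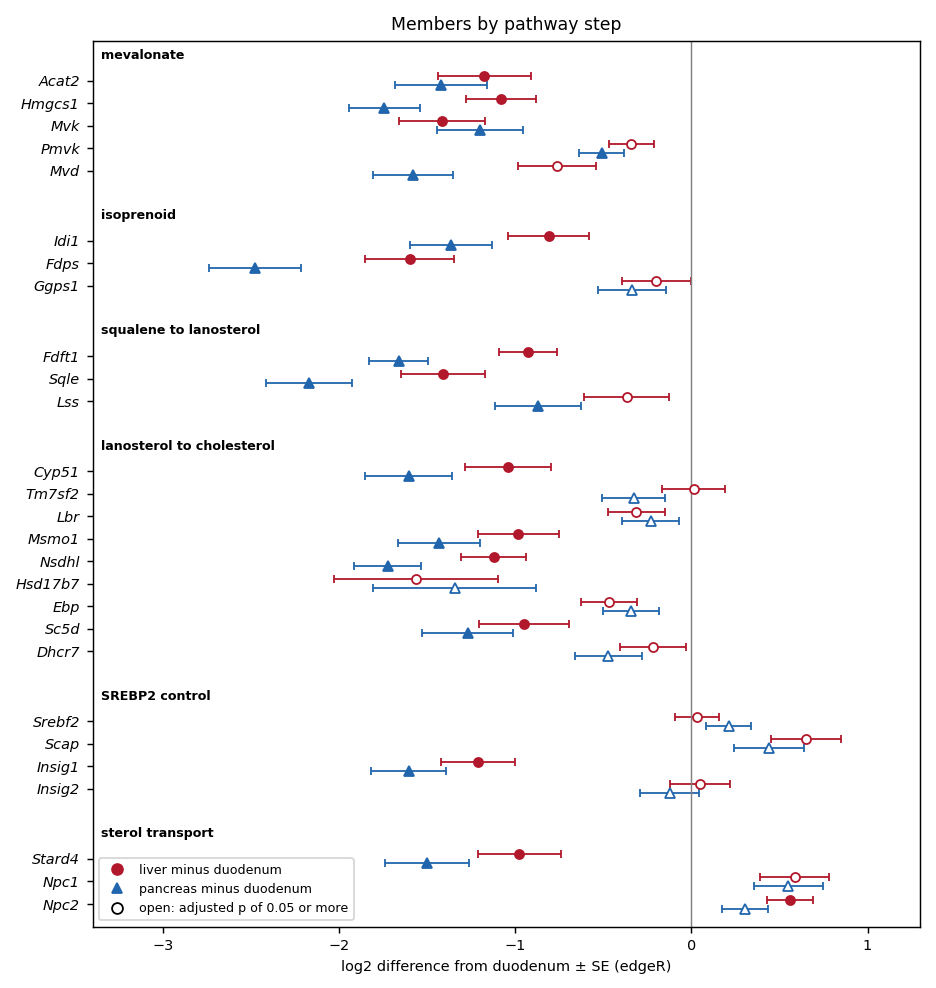
Log2 difference from duodenum (horizontal axis) for each of the 27 genes, grouped by pathway step, for liver (red circles) and pancreas (blue triangles). Bars are ± 1 standard error (SE) of the edgeR fit over 12 libraries, filled symbols passed the test and open ones did not. Fdps in pancreas is farthest to the left at -2.48, while Srebf2, Insig2 and Tm7sf2 in liver sit near 0.

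The promoters of the 27 genes were read for letters linked to SREBP2, since its targets usually carry a sterol regulatory element beside boxes for the partner factors NF-Y and SP1. RefSeq windows (GRCm38.p6) were at hand for 22 of the 27, and the 250 bases before the transcription start were searched on both strands. Fdps, Fdft1, Sqle, Stard4 and Npc1 had no window and were not searched. The searched letters were CCAAT for the NF-Y box, GGGCGG for the GC box of SP1 and TCACNCCAC for the element, and none of these contains another. CCAAT occurred in 20 of the 22 genes and in 71.4% of their 28 windows, against 33.8% of 32851 windows of all genes and 35.6% of 8358 windows of genes at 10 CPM or more. It occurred in 11 of the 12 genes with a window that were lower than duodenum and in 9 of the other 10. CCAAT was missing from Acat2, which was lower in both tissues, and from Scap, which did not pass the test. GGGCGG occurred in 78.6% of the members' windows, against 32.7% of all windows and 58.2% of those of genes at 10 CPM or more. TCACNCCAC occurred in Hmgcs1 alone, at position -137, where -1 is the base before the start, against 1.05% of all windows and 0.921% of those of genes at 10 CPM or more. A match describes these letters only and shows no binding. Other forms of the element and bases farther upstream were not searched, so a gene without a match may still carry an element.

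Promoters are shown for 3 mevalonate enzymes that were lower in pancreas than in duodenum and carry 2 to 5 CCAAT boxes, for Insig1 as the control gene that was lower, and for Scap as a control gene that did not pass the test and has no CCAAT. Each is written 5′ to 3′ on the gene's strand, and capitals mark CCAAT, its reverse complement ATTGG, or TCACNCCAC. Annotated exons were left out, which shortened the stretches of Mvk and Insig1.
Hmgcs1 (chr13:119690101-119690350, + strand, bases -250 to -1): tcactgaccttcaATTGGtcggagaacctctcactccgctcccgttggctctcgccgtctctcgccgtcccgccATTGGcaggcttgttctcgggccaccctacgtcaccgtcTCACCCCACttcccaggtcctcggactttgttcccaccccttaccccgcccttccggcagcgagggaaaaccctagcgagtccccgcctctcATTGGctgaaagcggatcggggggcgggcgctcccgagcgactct
Mvd (chr8:122443423-122443672, - strand, bases -250 to -1): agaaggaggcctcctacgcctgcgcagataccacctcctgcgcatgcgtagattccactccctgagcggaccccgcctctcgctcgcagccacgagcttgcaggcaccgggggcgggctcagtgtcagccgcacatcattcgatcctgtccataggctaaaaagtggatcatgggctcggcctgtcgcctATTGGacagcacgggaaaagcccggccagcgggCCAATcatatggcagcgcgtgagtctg
Mvk (chr5:114444061-114444268, + strand, bases -208 to -1): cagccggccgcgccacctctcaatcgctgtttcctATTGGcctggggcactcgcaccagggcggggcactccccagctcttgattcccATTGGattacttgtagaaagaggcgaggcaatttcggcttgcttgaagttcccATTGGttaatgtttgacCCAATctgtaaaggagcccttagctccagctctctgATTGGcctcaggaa
Insig1 (chr5:28071162-28071362, + strand, bases -250 to -50): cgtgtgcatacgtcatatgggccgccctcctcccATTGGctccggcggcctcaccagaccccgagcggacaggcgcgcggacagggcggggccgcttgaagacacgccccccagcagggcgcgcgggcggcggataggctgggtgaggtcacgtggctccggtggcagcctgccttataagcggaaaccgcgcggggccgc
Scap (chr9:110333038-110333287, + strand, bases -250 to -1): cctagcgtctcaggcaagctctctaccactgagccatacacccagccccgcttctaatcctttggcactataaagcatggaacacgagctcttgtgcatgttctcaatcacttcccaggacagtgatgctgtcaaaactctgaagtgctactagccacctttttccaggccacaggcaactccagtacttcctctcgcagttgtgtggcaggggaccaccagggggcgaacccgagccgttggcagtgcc
Hmgcs1 has 3 boxes and the only TCACNCCAC match, Mvd has 2 boxes, Mvk has 5 and Insig1 has 1. Scap has 2 RefSeq windows, of which the one farther upstream is printed.

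**Figure D2:**
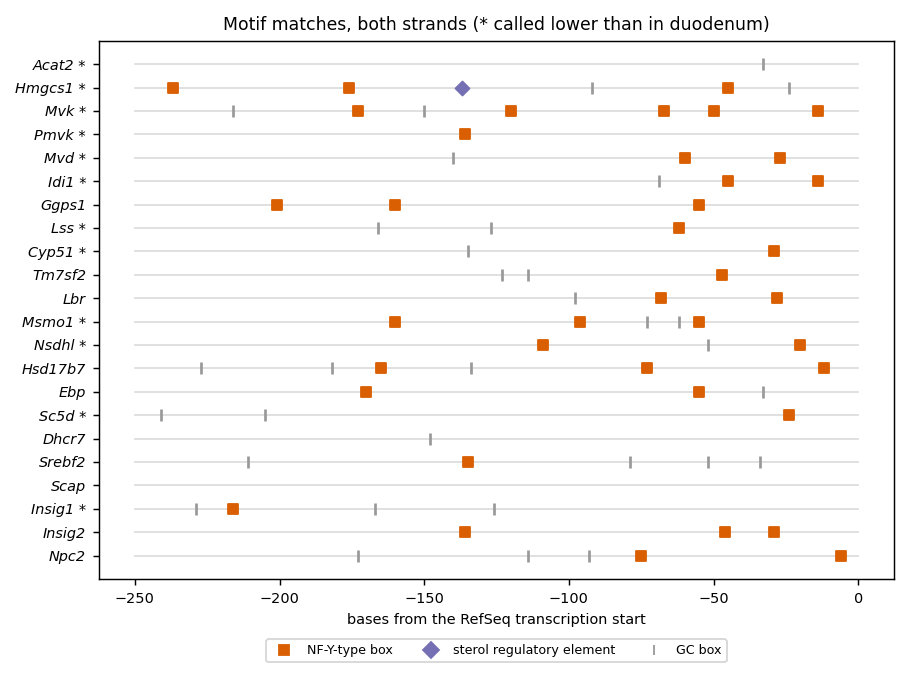
Position of each motif match in the 250 bases before the RefSeq start (horizontal axis, bases from the start) in the most upstream window of the 22 genes with one. Squares mark the NF-Y-type box, a diamond the sterol regulatory element and grey ticks the GC box. Genes with an asterisk were lower than in duodenum in at least 1 tissue, and boxes are seen in genes with and without it.

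The mevalonate steps begin with Acat2 (ENSMUSG00000023832), the thiolase that joins acetyl-CoA units. Acat2 was at 18.96, 12.7, 15.6 and 15.2 CPM in liver replicates 1 to 4, at 31.01, 31.6, 42.3 and 36.1 CPM in duodenum and at 7.88, 22.2, 11.7 and 10.8 CPM in pancreas. All 4 duodenum libraries lay above every other library, while liver and pancreas overlapped. For Acat2, liver differed from duodenum by -1.18 ± 0.26 (SE, adjusted p = 0.0124) and pancreas by -1.42 ± 0.26 (SE, adjusted p = 0.00338), in log2 units. Liver 2, pancreas 3 and pancreas 4 were the libraries outside duodenum with most plasma-cell RNA. Without them, Acat2 differed by -1.14 ± 0.30 (SE, adjusted p = 0.0592) in liver and -1.27 ± 0.35 (SE, adjusted p = 0.0810) in pancreas, and neither passed the test. The 4 duodenum libraries, with more of that RNA, stayed in. The cause of the lost calls was not tested. Hmgcs1 (ENSMUSG00000093930) encodes the cytosolic synthase that makes HMG-CoA. Its level was 119, 116, 106 and 109.9 CPM in the liver libraries, 228, 205, 285 and 237 CPM in the duodenum libraries and 45.7, 105, 62.6 and 72.1 CPM in the pancreas libraries, each in replicate order. The 3 tissues did not overlap, with duodenum highest and pancreas lowest. The log2 difference of Hmgcs1 from duodenum was -1.08 ± 0.20 (SE, adjusted p = 0.00370) in liver and -1.74 ± 0.20 (SE, adjusted p = 7.20e-05) in pancreas. The fitted fold was 2.12 in liver and 3.35 in pancreas, both below duodenum. Mvk (ENSMUSG00000041939), mevalonate kinase, adds the first phosphate. In replicate order, Mvk stood at 3.72, 9.41, 5.93 and 6.11 CPM in liver, 18.2, 14.3, 14.6 and 20.1 CPM in duodenum and 6.26, 8.54, 8.10 and 6.36 CPM in pancreas. Every duodenum value was above every value of the other two tissues, which overlapped. Mvk differed from duodenum by -1.42 ± 0.25 (SE, adjusted p = 0.00237) on the log2 scale in liver and by -1.20 ± 0.24 (SE, adjusted p = 0.00651) in pancreas.

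Pmvk (ENSMUSG00000027952) encodes phosphomevalonate kinase, which adds the second phosphate. Libraries 1 to 4 gave 56.1, 58.2, 63.4 and 63.7 CPM of Pmvk in liver, 81.8, 67.6, 84.2 and 72.2 CPM in duodenum and 48.5, 60.6, 59.4 and 46.3 CPM in pancreas. Its spread between tissues was the smallest of the mevalonate genes, although all 4 duodenum libraries lay above the rest. Against duodenum, the log2 difference of Pmvk was -0.34 ± 0.13 (SE, adjusted p = 0.142) for liver and -0.51 ± 0.13 (SE, adjusted p = 0.0237) for pancreas. The pancreas call was lost in 6 of 24 alternatives. Mvd (ENSMUSG00000006517) encodes the decarboxylase that yields isopentenyl diphosphate. Mvd was at 21.5, 15.03, 26.01 and 17.5 CPM in liver replicates 1 to 4, at 31.6, 30.4, 46.7 and 27.3 CPM in duodenum and at 13.01, 14.2, 9.28 and 8.99 CPM in pancreas. The 3 tissues did not overlap, with liver between the others. On the log2 scale Mvd was -0.76 ± 0.22 (SE, adjusted p = 0.0527) from duodenum in liver and -1.58 ± 0.23 (SE, adjusted p = 4.62e-04) in pancreas. Only the pancreas difference passed the test, and the liver difference passed in 10 of 24 alternatives.

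Idi1 (ENSMUSG00000058258) encodes the isomerase that makes the second isoprenoid unit. Its level was 41.3, 54.1, 34.1 and 40.4 CPM in the liver libraries, 69.8, 62.9, 87.02 and 78.4 CPM in the duodenum libraries and 17.4, 40.6, 33.9 and 23.8 CPM in the pancreas libraries, each in replicate order. Duodenum lay above both other tissues, and those overlapped. For Idi1, liver differed from duodenum by -0.81 ± 0.23 (SE, adjusted p = 0.0468) and pancreas by -1.36 ± 0.23 (SE, adjusted p = 0.00183), in log2 units. The liver call was lost in 9 of 24 alternatives. Fdps (ENSMUSG00000059743), farnesyl diphosphate synthase, stands where the sterol branch and protein prenylation part. In replicate order, Fdps stood at 89.1, 86.7, 109 and 90.6 CPM in liver, 272, 268, 321 and 277 CPM in duodenum and 24.7, 78.9, 56.1 and 44.8 CPM in pancreas. The tissues did not overlap, and pancreas 2 was the highest of its tissue. The log2 difference of Fdps from duodenum was -1.60 ± 0.25 (SE, adjusted p = 0.00118) in liver and -2.48 ± 0.26 (SE, adjusted p = 2.68e-05) in pancreas. The pancreas fold of 5.57 was the largest of the 27 genes in this comparison. Ggps1, which makes geranylgeranyl diphosphate from the same substrate, is the non-sterol branch. Ggps1 ran from 25.2 to 36.5 CPM in liver, from 26.8 to 43.4 CPM in duodenum and from 21.1 to 34.1 CPM in pancreas. The tissues overlapped. Ggps1 differed from duodenum by -0.20 ± 0.19 (SE, adjusted p = 0.679) on the log2 scale in liver and by -0.34 ± 0.19 (SE, adjusted p = 0.392) in pancreas. In TPM, Fdps exceeded Ggps1 6.42 ± 0.707-fold in liver, 17.1 ± 2.47-fold in duodenum and 3.76 ± 1.35-fold in pancreas (n = 4 each, ± SD). The ratio ran from 5.57 to 7.004 in liver, from 15.02 to 20.4 in duodenum and from 2.11 to 5.27 in pancreas, with no overlap between tissues.

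Fdft1 (ENSMUSG00000021273), squalene synthase, takes the first step committed to sterols. Libraries 1 to 4 gave 17.8, 17.9, 23.5 and 24.8 CPM of Fdft1 in liver, 38.5, 35.1, 44.6 and 41.4 CPM in duodenum and 11.4, 15.9, 11.03 and 12.1 CPM in pancreas. The ranges of the 3 tissues were separate, with every liver library between the duodenum and pancreas ones. Against duodenum, the log2 difference of Fdft1 was -0.93 ± 0.17 (SE, adjusted p = 0.00291) for liver and -1.66 ± 0.17 (SE, adjusted p = 1.87e-05) for pancreas. Fdft1 was also the only member to pass the test between liver and pancreas, at 0.74 ± 0.16 (SE, adjusted p = 0.0480), and that call held in 8 of 24 alternatives. Sqle (ENSMUSG00000022351), squalene epoxidase, is an oxygen-using step of the route. Sqle was at 22.6, 23.2, 18.5 and 18.5 CPM in liver replicates 1 to 4, at 59.6, 44.2, 71.3 and 45.3 CPM in duodenum and at 10.7, 18.2, 12.4 and 7.59 CPM in pancreas. Its tissues were also separate, pancreas 2 lying just under the lowest liver values. On the log2 scale Sqle was -1.41 ± 0.24 (SE, adjusted p = 0.00199) from duodenum in liver and -2.17 ± 0.24 (SE, adjusted p = 5.07e-05) in pancreas. Sqle had a fitted fold of 2.66 in liver and 4.51 in pancreas below duodenum. Lss (ENSMUSG00000033105) encodes lanosterol synthase, which closes the sterol rings. Its level was 14.9, 13.5, 18.3 and 18.3 CPM in the liver libraries, 20.4, 18.8, 27.3 and 17.3 CPM in the duodenum libraries and 7.68, 11.6, 17.8 and 8.81 CPM in the pancreas libraries, each in replicate order. Pancreas 3, at 17.8 CPM, reached into the duodenum range, and liver overlapped duodenum too. For Lss, liver differed from duodenum by -0.37 ± 0.24 (SE, adjusted p = 0.480) and pancreas by -0.87 ± 0.24 (SE, adjusted p = 0.0425), in log2 units. The pancreas call was lost in 7 of 24 alternatives.

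From lanosterol on, Cyp51 (ENSMUSG00000001467) removes the first methyl group. In replicate order, Cyp51 stood at 50.9, 50.6, 62.3 and 48.5 CPM in liver, 118, 90.6, 128 and 101 CPM in duodenum and 26.97, 59.9, 33.7 and 23.1 CPM in pancreas. Duodenum lay above both other tissues, and pancreas 2 lay within the liver range. The log2 difference of Cyp51 from duodenum was -1.04 ± 0.24 (SE, adjusted p = 0.0172) in liver and -1.61 ± 0.25 (SE, adjusted p = 8.36e-04) in pancreas. The liver call was lost without duodenum 3. Msmo1 (ENSMUSG00000031604), the sterol C4-methyl oxidase, works on the next methyl groups. Libraries 1 to 4 gave 39.96, 39.5, 47.2 and 31.2 CPM of Msmo1 in liver, 72.3, 79.7, 89.2 and 70.9 CPM in duodenum and 24.7, 47.4, 20.9 and 22.8 CPM in pancreas. Pancreas 2 was level with the highest liver library, and the other pancreas libraries lay below all of liver. Msmo1 differed from duodenum by -0.98 ± 0.23 (SE, adjusted p = 0.0171) on the log2 scale in liver and by -1.43 ± 0.23 (SE, adjusted p = 0.00128) in pancreas. Its liver call was also lost without duodenum 3. Nsdhl (ENSMUSG00000031349) is the dehydrogenase of the same demethylation complex. Nsdhl was at 15.7, 16.99, 13.8 and 13.2 CPM in liver replicates 1 to 4, at 35.6, 20.6, 39.2 and 34.6 CPM in duodenum and at 10.97, 9.92, 8.70 and 9.78 CPM in pancreas. The 3 tissues did not overlap, and pancreas 2 did not stand out. Against duodenum, the log2 difference of Nsdhl was -1.12 ± 0.19 (SE, adjusted p = 0.00171) for liver and -1.72 ± 0.19 (SE, adjusted p = 4.04e-05) for pancreas.

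Hsd17b7, the ketoreductase of that complex, had the lowest TPM of the 27 genes. The libraries spanned 1.35 to 2.97 CPM of Hsd17b7 in liver, 3.66 to 11.003 CPM in duodenum and 1.46 to 5.67 CPM in pancreas. All liver libraries lay below duodenum, and pancreas 2 reached above the lowest duodenum library. On the log2 scale Hsd17b7 was -1.56 ± 0.46 (SE, adjusted p = 0.0582) from duodenum in liver and -1.34 ± 0.46 (SE, adjusted p = 0.103) in pancreas. The SE of this gene was the largest of the group, and neither difference passed the test. Of the 23 alternatives that tested Hsd17b7, the liver difference passed in 6 and the pancreas difference in 3, DESeq2's own test among both. Sc5d (ENSMUSG00000032018) encodes lathosterol oxidase, which adds the C5 double bond. Its level was 32.2, 30.3, 24.1 and 19.2 CPM in the liver libraries, 64.997, 39.5, 56.6 and 43.6 CPM in the duodenum libraries and 13.8, 25.4, 29.96 and 15.6 CPM in the pancreas libraries, each in replicate order. Every duodenum library was above the others, by a narrow margin for duodenum 2. For Sc5d, liver differed from duodenum by -0.95 ± 0.26 (SE, adjusted p = 0.0364) and pancreas by -1.27 ± 0.26 (SE, adjusted p = 0.00630), in log2 units. The liver call was lost in 4 of 24 alternatives.

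The other enzymes of these last steps did not pass the test in either comparison with duodenum. Tm7sf2 and Lbr both encode sterol C14 reductases, and LBR also anchors chromatin to the nuclear envelope. Values of Tm7sf2 went from 8.70 to 11.7 CPM in liver, from 9.03 to 11.6 CPM in duodenum and from 7.11 to 10.99 CPM in pancreas. The log2 difference of Tm7sf2 from duodenum was 0.01 ± 0.18 (SE, adjusted p = 0.983) in liver and -0.33 ± 0.18 (SE, adjusted p = 0.363) in pancreas. Lbr ran from 208 to 298 CPM in liver, from 232 to 374 CPM in duodenum and from 238 to 316 CPM in pancreas. Lbr differed from duodenum by -0.31 ± 0.16 (SE, adjusted p = 0.327) on the log2 scale in liver and by -0.23 ± 0.16 (SE, adjusted p = 0.517) in pancreas. In TPM, Lbr exceeded Tm7sf2 17.3 ± 4.27-fold in liver, 21.6 ± 5.34-fold in duodenum and 23.7 ± 6.48-fold in pancreas (n = 4 each, ± SD), values that overlapped. Ebp encodes the sterol isomerase. The libraries spanned 27.6 to 31.8 CPM of Ebp in liver, 36.1 to 45 CPM in duodenum and 23.97 to 42.4 CPM in pancreas. All 4 liver libraries were below duodenum, while pancreas overlapped. Against duodenum, the log2 difference of Ebp was -0.47 ± 0.16 (SE, adjusted p = 0.0978) for liver and -0.35 ± 0.16 (SE, adjusted p = 0.252) for pancreas. The liver difference passed in 6 of 24 alternatives for Ebp and in 2 of 24 for Lbr. Dhcr7 encodes the reductase that finishes cholesterol. Values of Dhcr7 went from 7.13 to 10.6 CPM in liver, from 8.93 to 12.98 CPM in duodenum and from 6.54 to 9.63 CPM in pancreas. On the log2 scale Dhcr7 was -0.22 ± 0.19 (SE, adjusted p = 0.627) from duodenum in liver and -0.47 ± 0.19 (SE, adjusted p = 0.174) in pancreas. The ranges of Tm7sf2, Lbr and Dhcr7 overlapped between every pair of tissues.

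**Figure D3:**
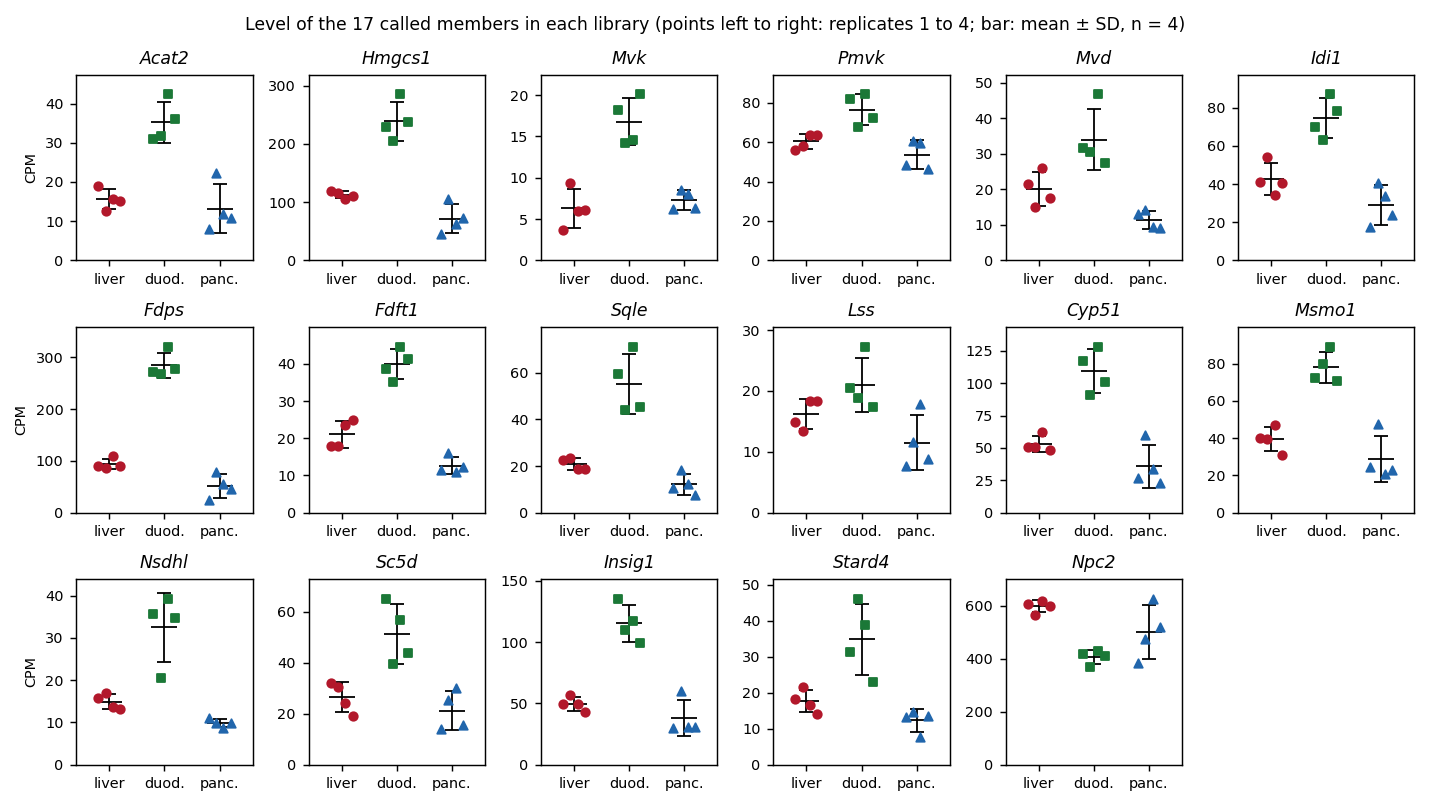
CPM (vertical axis, from 0, own scale in each panel) of the 17 members that passed the test in at least 1 comparison, in liver (red circles), duodenum (green squares) and pancreas (blue triangles). Points are single libraries, replicates 1 to 4 from left to right, and bars are mean ± SD (n = 4). Duodenum is highest in 16 panels and lowest in the panel of Npc2.

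Of the control genes, Srebf2, which encodes SREBP2 itself, had overlapping ranges in the 3 tissues. Srebf2 ran from 89.9 to 124 CPM in liver, from 98.1 to 126 CPM in duodenum and from 114 to 128 CPM in pancreas. For Srebf2, liver differed from duodenum by 0.03 ± 0.13 (SE, adjusted p = 0.941) and pancreas by 0.21 ± 0.13 (SE, adjusted p = 0.419), in log2 units. Srebf2 was higher in pancreas in 1 of 24 alternatives, edgeR with a stricter filter on low counts (adjusted p = 0.0201). Scap encodes the escort protein. The libraries spanned 29.6 to 49.8 CPM of Scap in liver, 18.3 to 33.7 CPM in duodenum and 30.7 to 39.8 CPM in pancreas. The log2 difference of Scap from duodenum was 0.65 ± 0.20 (SE, adjusted p = 0.0636) in liver and 0.44 ± 0.20 (SE, adjusted p = 0.238) in pancreas. These 2 Scap differences passed the test with library totals in place of scaling factors, with limma on TPM and with a stricter filter on low counts. Insig1 (ENSMUSG00000045294), the retention protein that is also an SREBP2 target, was the control gene that differed. In replicate order, Insig1 stood at 49.5, 57.04, 49.3 and 43.4 CPM in liver, 135, 109.6, 117 and 99.6 CPM in duodenum and 30.4, 60.1, 30.7 and 30.6 CPM in pancreas. All duodenum libraries lay above the rest, and pancreas 2 was the highest of its tissue, above all liver values. Insig1 differed from duodenum by -1.21 ± 0.21 (SE, adjusted p = 0.00240) on the log2 scale in liver and by -1.60 ± 0.21 (SE, adjusted p = 2.40e-04) in pancreas. Insig2, its partner that does not depend on SREBP2 to the same degree, is given for comparison. Values of Insig2 went from 26.1 to 35.7 CPM in liver, from 25.6 to 36.03 CPM in duodenum and from 21.6 to 35.4 CPM in pancreas. Against duodenum, the log2 difference of Insig2 was 0.05 ± 0.17 (SE, adjusted p = 0.935) for liver and -0.12 ± 0.17 (SE, adjusted p = 0.797) for pancreas. In TPM, the ratio of Insig1 to Insig2 was 0.763 ± 0.195 in liver, 1.81 ± 0.328 in duodenum and 0.654 ± 0.255 in pancreas (n = 4 each, ± SD). It ran from 1.33 to 2.07 in duodenum, above the 0.633 to 1.05 of liver and the 0.419 to 1.0002 of pancreas.

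Among the carriers, Stard4 (ENSMUSG00000024378) encodes a soluble protein that moves cholesterol between membranes and is an SREBP2 target. Libraries 1 to 4 gave 18.3, 21.6, 16.6 and 14.1 CPM of Stard4 in liver, 31.4, 46.1, 38.9 and 22.9 CPM in duodenum and 13.1, 14.8, 7.80 and 13.5 CPM in pancreas. All duodenum libraries lay above the others, duodenum 4 by the least. On the log2 scale Stard4 was -0.98 ± 0.24 (SE, adjusted p = 0.0204) from duodenum in liver and -1.50 ± 0.24 (SE, adjusted p = 0.00109) in pancreas. The liver call was lost in 4 of 24 alternatives. Npc2 (ENSMUSG00000021242) encodes the lysosomal protein that hands cholesterol from endocytosed lipoprotein to NPC1. Npc2 was at 607, 567, 619 and 599 CPM in liver replicates 1 to 4, at 417, 368, 430.0 and 409.5 CPM in duodenum and at 384, 474, 626 and 521 CPM in pancreas. All 4 liver libraries lay above duodenum, the reverse of the enzymes, and pancreas overlapped both. For Npc2, liver differed from duodenum by 0.56 ± 0.13 (SE, adjusted p = 0.0174) and pancreas by 0.30 ± 0.13 (SE, adjusted p = 0.215), in log2 units. The liver call was lost in 7 of 24 alternatives, among them the scaling by DESeq2 size factors. Npc1 encodes the lysosomal membrane exporter. Npc1 ran from 22.1 to 25.4 CPM in liver, from 12.8 to 19.5 CPM in duodenum and from 15.2 to 27.9 CPM in pancreas. Liver lay above duodenum without overlap, and pancreas overlapped. The log2 difference of Npc1 from duodenum was 0.59 ± 0.20 (SE, adjusted p = 0.0926) in liver and 0.55 ± 0.20 (SE, adjusted p = 0.117) in pancreas. With library totals, limma on TPM or a stricter filter on low counts, Npc1 was higher than duodenum in both tissues and Npc2 also in pancreas.

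By TPM, Fdps led in duodenum at 244 ± 20.7 TPM, followed by Npc2 at 126 ± 4.68 TPM and Lbr at 104 ± 17.7 TPM (SD, n = 4 each), of which the last pair overlapped within ± SD. In liver Npc2 came first at 207 ± 7.94 TPM, with Lbr at 94.001 ± 15.1 TPM and Fdps at 89.6 ± 5.33 TPM, which did not differ beyond their spread. In pancreas Npc2 was at 162 ± 20.2 TPM and Lbr at 93.1 ± 6.28 TPM, while Pmvk at 52.5 ± 5.28 TPM and Fdps at 45.3 ± 18.9 TPM overlapped. Hsd17b7 was last in every tissue, at 0.861 ± 0.245 TPM in liver, 2.28 ± 1.15 TPM in duodenum and 0.945 ± 0.704 TPM in pancreas. Near copies of Acat2, Idi1 and Npc1 were low, with means over 12 libraries of 0.39 TPM for Acat3, 0.31 TPM for Idi2 and 0.098 TPM for Npc1l1.

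Between liver and pancreas, all 4 liver libraries lay above all 4 pancreas libraries for 6 of the 27 genes, Hmgcs1, Mvd, Fdps, Fdft1, Sqle and Nsdhl, and below them for 0, beside 3.11% and 3.47% of all genes. Only Fdft1 passed the test. The differences were 0.88 ± 0.25 (SE, adjusted p = 0.146) for Fdps, 0.82 ± 0.22 (SE, adjusted p = 0.128) for Mvd, 0.76 ± 0.24 (SE, adjusted p = 0.210) for Sqle, 0.66 ± 0.20 (SE, adjusted p = 0.185) for Hmgcs1 and 0.60 ± 0.19 (SE, adjusted p = 0.206) for Nsdhl. The count that passed depended on the processing, at 7 with a stricter filter on low counts, 6 with limma on TPM and 0 with DESeq2 size factors. It also depended on pancreas 2. Without that library, 7 of the 27 were higher in liver, namely Fdft1, Cyp51, Fdps, Hmgcs1, Insig1, Msmo1 and Sqle, with Fdps at 1.17 ± 0.22 (SE, adjusted p = 0.0250) and Cyp51 at 0.93 ± 0.18 (SE, adjusted p = 0.0233).

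Over the 16 members that were lower than duodenum in at least 1 tissue, each gene was centred on its mean log2 CPM of the 12 libraries. These 16 were chosen by the test, so the tissue order is a description only, and what follows concerns libraries within a tissue. The median of the 16 was -0.98 in pancreas 1, -0.22 in pancreas 2, -0.93 in pancreas 3 and -0.86 in pancreas 4. Pancreas 2 was the highest of its tissue for 13 of the 16 genes and the lowest for 0. Liver libraries ran from -0.28 to -0.09 and duodenum libraries from 0.68 to 1.03. Duodenum 3 was the highest of its tissue for 12 of the 16 genes, and duodenum 2 the lowest for 10. The share of all genes with the same highest or lowest library was not counted. For other genes at a mean of 10 CPM or more, the median Pearson r with the mean deviation of the 16 from their tissue means was 0.33. Duodenum 2 was also lowest of its tissue for the summed cDC1 genes, at 5351 CPM against 7713 to 8526 CPM. The low rank of duodenum 2 was thus seen in genes outside the 16 too. How far other genes share the high rank of pancreas 2 was not tested. The 15 acinar genes checked, which mark the digestive-enzyme cells of the pancreas, summed to 1130 CPM in pancreas 2 and to 3127 to 5739 CPM in the other pancreas libraries. The 19 immediate-early genes checked, which are induced soon after a stimulus, summed to 1568 CPM in pancreas 2 and 2037 to 2326 CPM in the others. The part of either in the levels of pancreas 2 was not tested.

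**Figure D4:**
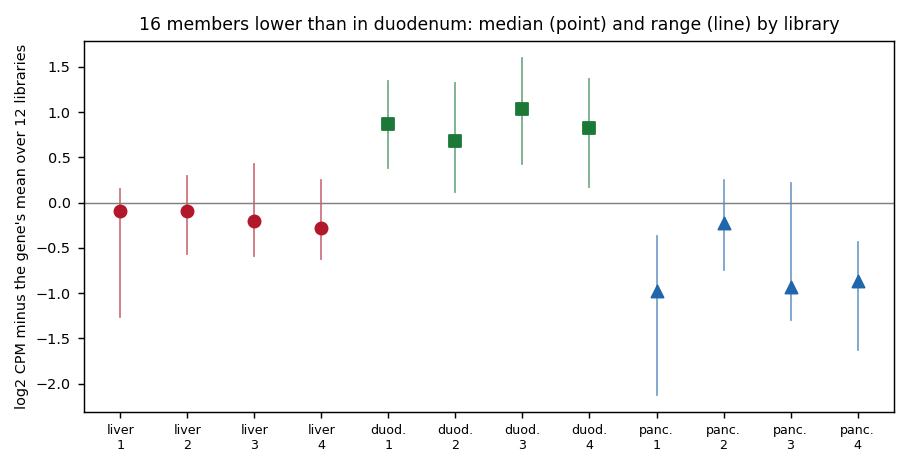
Median (point) and range (line) over the 16 members that were lower than duodenum of log2 CPM minus each gene's mean over 12 libraries (vertical axis), by library (horizontal axis). Pancreas 2 sits at -0.22, beside the liver libraries, while the other 3 pancreas libraries sit between -0.98 and -0.86.

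Marker lists of other cells and states moved with the tissues as well. Beside the counts below, 3.95% of all genes tested were lower and 3.37% higher than duodenum in liver, and 3.94% and 3.76% in pancreas. Among the 11647 expressed genes the shares were 11.4% and 7.48% in liver, and 11.1% and 8.59% in pancreas. The 12 plasma-cell genes summed to 218 to 732 CPM in liver, 8689 to 12962 CPM in duodenum and 248 to 1110 CPM in pancreas, and against duodenum 8 of the 12 were lower in liver and 7 in pancreas. The 19 immediate-early genes summed to 1263 to 1448, 6880 to 9763 and 1568 to 2326 CPM in the same order, with 18 and 15 of the 19 lower than in duodenum. For the 9 cDC2 genes the sums were 12.3 to 18.3, 58.5 to 92.3 and 45.5 to 59.2 CPM, with 7 and 6 of the 9 lower. Most of the pancreas sum was Epcam, at 5.82 ± 1.38 CPM in liver, 27.1 ± 9.82 CPM in duodenum and 39.8 ± 5.62 CPM in pancreas (mean ± SD of 4 libraries). Epcam did not pass the test between pancreas and duodenum, at 0.55 ± 0.25 (SE, adjusted p = 0.240), so the pancreas sum says little about the other cDC2 genes. The 16 replication genes summed to 707 to 859, 953 to 1737 and 1039 to 1541 CPM, with 8 and 1 of the 16 lower. The 16 migration and maturation genes summed to 1307 to 1942, 769 to 1106 and 1850 to 3339 CPM, with 12 of the 16 higher in either tissue. The 15 acinar genes summed to 4.83 to 6.39 CPM in liver and 5.73 to 18.4 CPM in duodenum, against the sums of pancreas given above. The 15 hepatocyte genes summed to 177 to 283, 44.4 to 54.9 and 388 to 456 CPM, with 14 of the 15 higher than duodenum in liver and 1 in pancreas. Most of these sums was Trf, the transferrin gene, at 176 ± 34.7 CPM in liver, 46.4 ± 4.47 CPM in duodenum and 415 ± 31.7 CPM in pancreas (mean ± SD of 4 libraries), the gene that was higher in pancreas. Alb, the albumin gene, was at 11.1 ± 2.53 CPM in liver, 0.307 ± 0.162 CPM in duodenum and 0.244 ± 0.210 CPM in pancreas. The 18 intestinal epithelial genes summed to 13.2 to 19.2, 14.5 to 18.6 and 13.3 to 18.04 CPM, ranges that overlapped. No gene of these lists was at 0 in all libraries of a tissue. The part of the plasma-cell, immediate-early, cDC2, hepatocyte, acinar, replication and maturation differences in those of the 27 genes was not tested.

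A further 88 genes stand in 6 lists around the pathway. The list of electron donors and scaffold proteins of sterol synthesis holds the cytochrome b5 genes, Cyb5r3 and Por, which carry electrons to its oxidases and desaturases, and genes such as Erg28 and Tmem97, which do not. Of its 6 genes with enough counts, 3 were lower in liver and 4 in pancreas, beside 11.4% and 11.1% of the 11647 expressed genes. The list medians were -0.66 and -0.94, beside 0.10 and 0.09 for all genes and -0.08 and -0.05 for the 11647. Cyb5r3, the reductase of cytochrome b5, was at 56.8 ± 4.98 CPM in liver, 108 ± 30.4 CPM in duodenum and 49.5 ± 9.55 CPM in pancreas, here and below as mean ± SD of 4 libraries. Its log2 difference from duodenum was -0.93 ± 0.20 (SE, adjusted p = 0.0111) in liver and -1.12 ± 0.20 (SE, adjusted p = 0.00280) in pancreas. Cyb5b, the cytochrome b5 of the outer mitochondrial membrane, was at 62.8 ± 8.10 CPM in liver, 105 ± 12.2 CPM in duodenum and 55.2 ± 12.3 CPM in pancreas. From duodenum it differed by -0.74 ± 0.16 (SE, adjusted p = 0.0117) in liver and by -0.93 ± 0.16 (SE, adjusted p = 0.00234) in pancreas, on the log2 scale. The other cytochrome b5 gene, Cyb5a, had a higher level and did not pass the test. Cyb5a was at 193 ± 9.79 CPM in liver, 193 ± 22.7 CPM in duodenum and 191 ± 23.98 CPM in pancreas. Its log2 difference from duodenum was 0.004 ± 0.12 (SE, adjusted p = 0.992) in liver and -0.01 ± 0.12 (SE, adjusted p = 0.979) in pancreas. Tmem97, an SREBP2 target that encodes the sigma-2 receptor, was at 6.67 ± 2.83 CPM in liver, 15.4 ± 4.03 CPM in duodenum and 7.83 ± 1.93 CPM in pancreas. Its log2 difference from duodenum was -1.21 ± 0.28 (SE, adjusted p = 0.0170) in liver and -0.98 ± 0.28 (SE, adjusted p = 0.0483) in pancreas. Por, the donor of cytochrome P450 enzymes such as CYP51, was lower in pancreas, at -0.95 ± 0.25 (SE, adjusted p = 0.0324). Of 24 alternatives, the pancreas call was lost in 6 for Por and in 8 for Tmem97. The liver call was lost in 2 for Tmem97 and in 1 for Cyb5r3.

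The 15 genes of SREBP processing and sterol-regulated degradation held 2 that were lower in liver and the same number in pancreas, with medians of 0.05 and 0.07. That count of 2 in 15 is near the 11.4% and 11.1% of the 11647 expressed genes that were lower. None was higher by edgeR, at an unadjusted p under 0.05 or by DESeq2. They were Syvn1, a ubiquitin ligase, at -0.91 ± 0.18 (SE, adjusted p = 0.00643) in liver and -1.37 ± 0.18 (SE, adjusted p = 2.75e-04) in pancreas, and Ube2g2, a ubiquitin-conjugating enzyme, at -0.65 ± 0.17 (SE, adjusted p = 0.0294) and -0.94 ± 0.17 (SE, adjusted p = 0.00269). The proteases that cleave SREBP2 did not pass. Mbtps1, the site-1 protease, was at 45.5 ± 9.43 CPM in liver, 49.2 ± 10.2 CPM in duodenum and 40.5 ± 2.73 CPM in pancreas, and Mbtps2, the site-2 protease, at 20.6 ± 3.996 CPM in liver, 17.9 ± 1.92 CPM in duodenum and 22.1 ± 3.004 CPM in pancreas. Differences in Mbtps1 were -0.11 ± 0.18 (SE, adjusted p = 0.830) in liver and -0.28 ± 0.18 (SE, adjusted p = 0.448) in pancreas. Those in Mbtps2 were 0.20 ± 0.16 (SE, adjusted p = 0.590) and 0.30 ± 0.16 (SE, adjusted p = 0.347).

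Srebf1 encodes SREBP1, the related factor for fatty acid synthesis. It was at 26.9 ± 7.69 CPM in liver, 40.7 ± 11.8 CPM in duodenum and 22.7 ± 4.25 CPM in pancreas. From duodenum it differed by -0.60 ± 0.23 (SE, adjusted p = 0.151) in liver and by -0.84 ± 0.23 (SE, adjusted p = 0.0374) in pancreas, on the log2 scale. The pancreas call was lost in 8 of 24 alternatives. Of the 18 genes of the SREBP1 and fatty acid list, 3 were lower and 0 higher in liver (2 higher at an unadjusted p under 0.05, 0 by DESeq2), and 8 were lower and 2 higher in pancreas, with medians of -0.29 and -0.49. Of the 11647 expressed genes, 11.4% were lower and 7.48% higher in liver, and 11.1% and 8.59% in pancreas. The 3 lower in liver and the 2 higher in pancreas, of 18, are near these shares. Fads2, a desaturase, was at 6.41 ± 2.70 CPM in liver, 16.9 ± 2.49 CPM in duodenum and 6.26 ± 0.891 CPM in pancreas. Its log2 difference from duodenum was -1.40 ± 0.26 (SE, adjusted p = 0.00343) in liver and -1.43 ± 0.26 (SE, adjusted p = 0.00260) in pancreas. Elovl6, an elongase, was at 8.42 ± 1.86 CPM in liver, 21.2 ± 3.67 CPM in duodenum and 8.03 ± 3.64 CPM in pancreas. From duodenum it differed by -1.33 ± 0.28 (SE, adjusted p = 0.00795) in liver and by -1.40 ± 0.28 (SE, adjusted p = 0.00520) in pancreas, on the log2 scale. Elovl5, another elongase, was lower in liver at -0.60 ± 0.15 (SE, adjusted p = 0.0227). In pancreas the desaturases parted, with Scd2 lower at -1.59 ± 0.29 (SE, adjusted p = 0.00297) and Fads1 higher at 1.76 ± 0.32 (SE, adjusted p = 0.00272). The 17 genes that use isoprenoids, for prenylation, dolichol and ubiquinone, held 0 calls in liver by edgeR (3 lower and 1 higher at an unadjusted p under 0.05, 1 lower by DESeq2) and 1 in pancreas, Coq2 at -1.03 ± 0.23 (SE, adjusted p = 0.0130), with medians of -0.18 and -0.27. Neither count is higher than the shares of the 11647 expressed genes given above.

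Soat1, which esterifies cholesterol for storage, was at 226 ± 27.7 CPM in liver, 501 ± 21.5 CPM in duodenum and 139.8 ± 33.998 CPM in pancreas. Its log2 difference from duodenum was -1.15 ± 0.16 (SE, adjusted p = 3.51e-04) in liver and -1.84 ± 0.16 (SE, adjusted p = 4.44e-06) in pancreas. Between liver and pancreas Soat1 differed by 0.69 ± 0.16 (SE, adjusted p = 0.0486), a call that held in 9 of 24 alternatives. Soat1 belongs to a list of 20 genes of sterol movement, storage and hydrolysis, of which 2 were lower in each comparison with duodenum, with medians of -0.12 and -0.11. This share is no higher than the 11.4% and 11.1% of the 11647 expressed genes that were lower. None was higher by edgeR, by DESeq2 or at an unadjusted p under 0.05. The other gene was Gramd1b, a sterol carrier of membrane contacts, in liver at -0.85 ± 0.19 (SE, adjusted p = 0.0118), and Stard5, a lipid carrier, in pancreas at -0.97 ± 0.18 (SE, adjusted p = 0.00382). The last list, of 12 genes, holds targets of the liver X receptor, a nuclear receptor that senses oxysterols, with the receptor genes Nr1h2 and Nr1h3 and the bile acid receptor gene Nr1h4. None of these 3 receptor genes was called between any pair of tissues. Of the 12, 4 were higher and 1 lower in liver, and 2 higher and 1 lower in pancreas, with medians of 0.05 and 0.40. Of the 11647 expressed genes, 7.48% were higher and 11.4% lower in liver, and 8.59% and 11.1% in pancreas. The 1 in 12 that was lower in either tissue is no higher than these shares. Apoc1, Pltp, Abca1, Nr1h3 and Nr1h4 of the list had levels below those of the 11647 genes. Abcg1, a sterol exporter, was at 348 ± 11.6 CPM in liver, 40.95 ± 8.61 CPM in duodenum and 259 ± 41.5 CPM in pancreas. From duodenum it differed by 3.09 ± 0.17 (SE, adjusted p = 1.26e-07) in liver and by 2.66 ± 0.16 (SE, adjusted p = 2.46e-07) in pancreas, on the log2 scale. Mylip, a ubiquitin ligase of lipoprotein receptors, was at 35.5 ± 2.03 CPM in liver, 10.4 ± 0.715 CPM in duodenum and 23.9 ± 3.92 CPM in pancreas. Its log2 difference from duodenum was 1.77 ± 0.14 (SE, adjusted p = 3.83e-06) in liver and 1.19 ± 0.14 (SE, adjusted p = 7.55e-05) in pancreas. Smpdl3a, a phosphodiesterase, went the other way, at 57.1 ± 4.28 CPM in liver, 145 ± 35.3 CPM in duodenum and 57.01 ± 5.62 CPM in pancreas. From duodenum it differed by -1.34 ± 0.16 (SE, adjusted p = 1.26e-04) in liver and by -1.34 ± 0.16 (SE, adjusted p = 9.60e-05) in pancreas, on the log2 scale. Apoe, an apolipoprotein, was higher in liver than in pancreas by 2.55 ± 0.30 (SE, adjusted p = 3.33e-04), and so was Apoc1, at 3.81 ± 0.61 (SE, adjusted p = 0.00522) from a level of 0.964 CPM in liver. These genes were also among those higher in liver than in duodenum. Apoe differed there by 1.62 ± 0.29 (SE, adjusted p = 0.00300) and Apoc1 by 4.77 ± 0.65 (SE, adjusted p = 3.31e-04), with Apoc1 at 0.034 CPM in duodenum. Both are also abundant hepatocyte transcripts, and 10 of the 15 hepatocyte genes were higher in liver than in pancreas, among them Alb at 5.50 ± 0.59 (SE, adjusted p = 1.42e-04) and Serpina3k at 5.74 ± 0.68 (SE, adjusted p = 3.52e-04), and Trf was lower. Of the same 15 hepatocyte genes, 14 were higher and 0 lower in liver than in duodenum. The part of hepatocyte RNA in the Apoe and Apoc1 differences from either tissue was not tested.

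**Figure D5:**
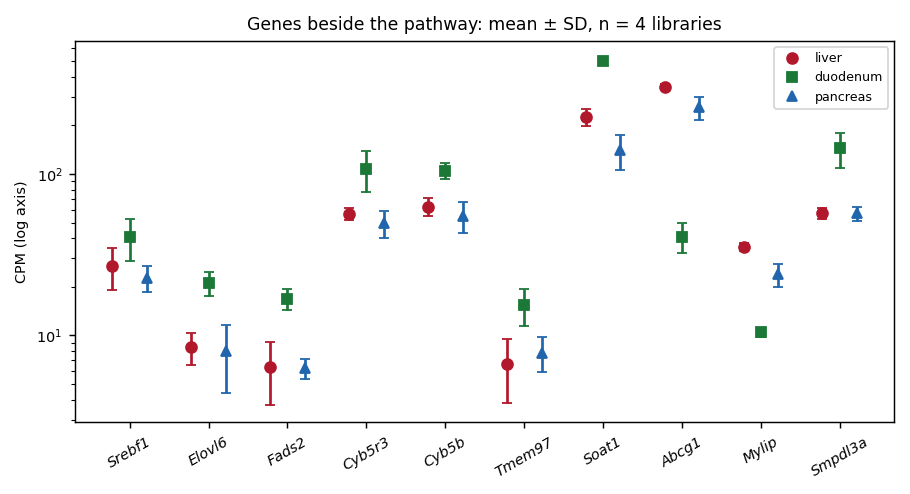
CPM (vertical log axis) of 10 genes around the pathway in liver (red circles), duodenum (green squares) and pancreas (blue triangles), as mean ± SD of 4 libraries. Soat1, Cyb5r3 and Cyb5b are highest in duodenum, and Abcg1 and Mylip are lowest there. Cyb5a is not shown.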

How the data were processed

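Per the submitters' processing notes, kallisto was used on build GRCm39; its version, annotation and strand setting were not given in the sources used here. As estimated counts and as TPM, the authors deposited values for 55401 genes in 12 libraries, named biological replicates 1 to 4 of each tissue. The rounded counts were fitted in edgeR 4.0.16 (R 4.3.3): filterByExpr (minimum count of 10), TMM scaling, and a robust quasi-likelihood fit of all 12 libraries with 1 term per tissue. Adjusted p-values come from its F test with Benjamini-Hochberg adjustment over 44624 genes, called under 0.05. The SE is the absolute log2 difference over the square root of F. Between estimated counts and deposited TPM the ratio split into 1 gene term and 1 library term, so the counts may have been rebuilt from TPM, and intervals from counting error are not given. The test was checked on simulated counts. No 2 libraries agreed within sampling noise.

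The 27 genes and all lists were chosen with earlier results of these data known, so their counts are descriptions. Values in every library are printed for members called in at least 1 comparison. Of the 6 pathway lists, up to 3 called genes of smallest adjusted p per comparison are named, with Srebf1, Mbtps1, Mbtps2 and Cyb5a. Apoe and Apoc1 are also given for liver against duodenum. Alternatives were DESeq2 1.42.0 (size factors, Wald test), library totals, limma 3.58.1 on log2(TPM + 1) and log2(TPM + 0.1), filters, a fit of 2 tissues, a replicate block and left-out libraries. For the other pathway genes they were added after seeing the data. The 3 columns of the TPM table without a name were empty, and 1 listed symbol had no row.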

Additional observations from a re-analysis of the deposited data

Results flagged for a closer look

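In 7 of the 81 groups of 4 libraries (27 genes in 3 tissues), 1 library stood apart from the other 3 by more than Dixon's 95% limit for the gap over the range, where chance alone gives about 1 in 20. Of these, 3 were pancreas 2, at 47.4 CPM for Msmo1, 5.67 CPM for Hsd17b7 and 60.1 CPM for Insig1, each above the other pancreas libraries. Duodenum 3 stood apart for Fdps at 320.8 CPM and for Srebf2 at 126 CPM, again as the highest. In liver, library 3 was highest for Cyp51 at 62.3 CPM and library 1 for Npc1 at 25.4 CPM. The genes are linked by pathway and the libraries are shared, so these 7 are not independent.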

How the results depend on the processing

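No call of the 27 genes or of the named genes around the pathway changed direction under any of 24 alternatives. Liver against duodenum, 14 members called became 9 to 19 when 1 library was left out, with 9 without duodenum 3 (Cyp51, Idi1, Msmo1, Sc5d and Stard4 were lost) and 19 without duodenum 2. Pancreas against duodenum, 16 became 14 to 17. Liver against pancreas, 1 became 0 to 7, with 7 without pancreas 2. That last count was 0 with DESeq2 size factors, with no filter, with only the 2 tissues fitted or without liver 2, pancreas 3 and pancreas 4. Those 3 libraries had the most plasma-cell RNA outside duodenum. The duodenum libraries, with sums of 8689 to 12962 CPM for these genes, stayed in. The count was 2 with DESeq2's own test, 4 with library totals, 6 with limma on log2(TPM + 1) and on log2(TPM + 0.1), and 7 among genes at 10 CPM or more. Over all genes, 3265 calls for liver and duodenum ran from 2397 to 4807 with 1 library left out. They were 5019 by DESeq2, 4913 without duodenum 2 and pancreas 1, and 2069 without liver 2, pancreas 3 and pancreas 4. Over all genes, the 3437 for pancreas and duodenum ran from 2596 to 4716, and were 1712 without those 3. The 494 for liver and pancreas ran from 343 to 749, and were 1145 by DESeq2, 1026 at 10 CPM or more, 820 with library totals, 957 and 920 with limma (pseudocounts 1 and 0.1), and 177 without those 3. For these changes the cause was not tested. Of all calls between liver and duodenum, 46.0% were higher in liver, against 35.3% with DESeq2 size factors, 63.5% with library totals and 63.4% with limma on log2(TPM + 1), while the median of all genes moved from 0.10 to 0.02, 0.25 and 0.14. Replicate numbers are shared between tissues, but deviations of same-numbered libraries correlated at only -0.20 to 0.12 over 12 pairs, 2 of them above 0.1, and 5 of 12 libraries correlated best with their own number, so the numbers were not taken to pair them. With a replicate block, 13, 16 and 0 members and 2931, 3125 and 436 genes were called for the 3 comparisons in the order above. Totals were at least 220.9 M (mega) estimated counts, and how far depth, the pooling of 2 mice or the 4 libraries per tissue each limit precision was not compared.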
